A study of Rattus norvegicus with 18 samples.

Results

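The first day of oligodendrocyte (OLG) differentiation without inhibitor was described here from 6 of the 18 arrays of the series, 3 of day 1 control cultures and 3 of day 0 cultures, chosen by their labels. In the whole series, primary oligodendrocyte progenitors (OLPs) from rat brain were followed through differentiation with and without PD169316, an inhibitor of the p38 kinases. All cultures came from newborn Sprague-Dawley rats and were grown in serum-free medium that held triiodothyronine, hydrocortisone, progesterone and transferrin. The day 0 cells had been kept dividing with the mitogens PDGF-AA and bFGF. The day 1 control cells had been without mitogens for a day and, by the study's methods, were given the vehicle DMSO. Vehicle is not stated for day 0, so that removal of mitogens, a further day in culture and vehicle cannot be told apart. Nothing in the labels says that the 3 arrays of a group came from separate cultures, so the p-values reflect only how far these arrays differed from each other, and that difference may be technical.

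OLPs divide in response to PDGF-AA and bFGF, which act through receptor tyrosine kinases and the ERK pathway. When the mitogens are removed, the cells leave the cell cycle, extend branched processes and, as OLGs, make the lipids and membrane proteins of myelin, the insulating sheath of axons. Transcription factors such as Sox10 and Olig2 mark the whole lineage, whereas Notch, Wnt and BMP signals are known to hold back differentiation.

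Each array reported a bead intensity for 22523 probes, and 9959 probes were detected on all 3 arrays of day 1 control or of day 0 and were tested. Levels are given as log2 intensity after background correction and quantile normalization, and differences as day 1 control minus day 0 on the same scale. At a Benjamini-Hochberg adjusted p under 0.05 in limma, 3576 probes (35.9%) were called, 1819 of them higher (18.3%) and 1757 lower (17.6%) at day 1 control. A gene detected on only 1 or 2 arrays of a group is named as such, since its difference there is taken in part against levels not above background. Most of these changes were small. Only 179 of the called probes were at least 2-fold higher and 197 at least 2-fold lower, and the median size of a called difference was 0.49. The levels of the groups did not overlap for 50.5% of probes, 26.2% with day 1 control higher and 24.2% with it lower. The 6 arrays were alike in the number of probes detected, 9822 to 10364 on the day 1 control arrays and 10143 to 10683 on the day 0 arrays. Correlations were 0.9949 to 0.9969 within a group and 0.9782 to 0.9812 between the groups. The median deposited intensity of an array was 124 to 139 at day 1 control and 141 to 149 at day 0. On the deposited intensities without normalization the median difference of all probes was -0.27, and 6.57% of called probes were higher, against 50.9% after normalization. Directions are therefore given relative to the median of all probes, and on that footing the median of every gene list kept its sign on the deposited values, other than that of the integrins, laminins and collagens.

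**Figure D1:**
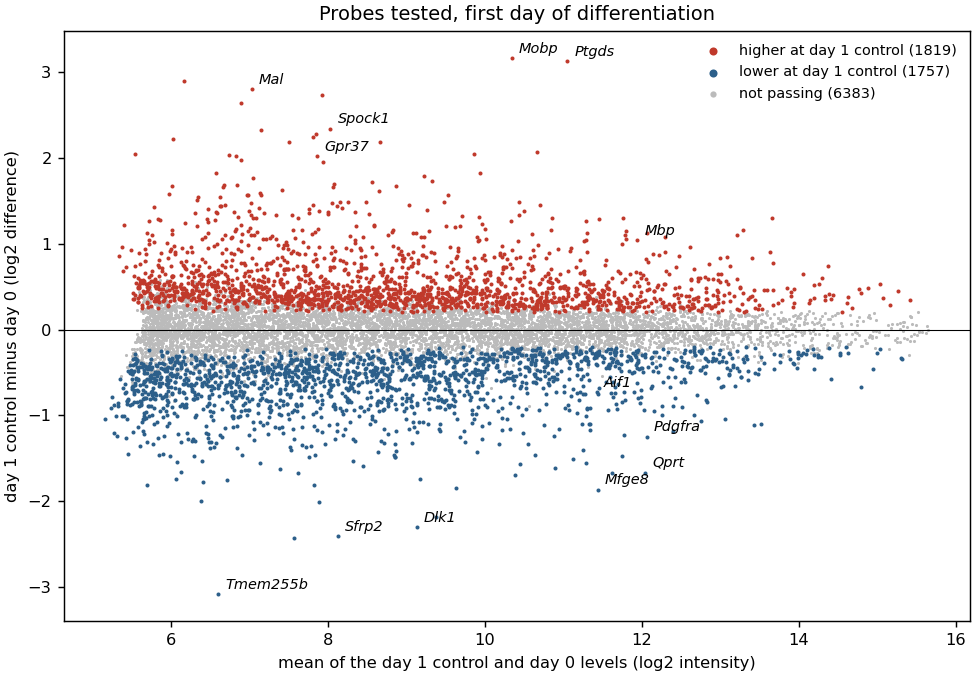
Each point is 1 of the probes tested, with the mean of the day 1 control and day 0 levels (log2 intensity) on the horizontal axis and day 1 control minus day 0 (log2 difference) on the vertical axis. Red points were called higher at day 1 control, blue points lower, and grey points did not pass; *Mobp* and *Ptgds* stand highest, at 3.16 and 3.12, and *Tmem255b* lowest, at -3.08.

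The most increased named gene was *Mobp*, which encodes an abundant basic protein of compact myelin. Its level was 11.93, 11.93 and 11.92 on the day 1 control arrays, against 8.68, 8.82 and 8.80 on the day 0 arrays, a difference of 3.16 ± 0.07 (SE) or 8.94-fold (adjusted p = 1.8e-06). *Ptgds*, encoding prostaglandin D2 synthase, followed with 12.43, 12.64 and 12.75 at day 1 control and 9.63, 9.47 and 9.36 at day 0 (8.71-fold, adjusted p = 7.3e-06). In both cases the lowest day 1 control array lay far above the highest day 0 array. *Mal*, a proteolipid of myelin membranes, measured 8.49, 8.26 and 8.54 at day 1 control and 5.81, 5.44 and 5.64 at day 0, with 2 of the 3 day 0 arrays detecting it (6.96-fold, adjusted p = 1.8e-05). The other genes among the 15 most increased were more varied. Only the 7343 tested probes with a gene symbol could enter this ranking and that of the decreased genes. They included the testican proteoglycan *Spock1* (5.06-fold), the secreted protein *Pip* (5.01-fold, detected on 2 of 3 day 0 arrays), the iron-trafficking lipocalin *Lcn2* (4.85-fold) and the lysophosphatidic acid receptor *Lpar3* (4.74-fold). Genes of cell shape, polarity and membrane traffic were also present, among them the Cdc42 effector *Cdc42ep2* (4.53-fold), the planar polarity gene *Prickle1* (4.18-fold) and the SNARE family member *Vamp5* (4.12-fold), together with *Tmem125* (4.55-fold). *Fgfr2*, *Wnt16*, the orphan receptor *Gpr37* and *Dusp10*, a phosphatase of the p38 and JNK kinases, completed the group at 4.09-fold, 4.07-fold, 4.05-fold and 3.92-fold.

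Among the decreased genes, *Tmem255b* was detected on all day 0 arrays (7.60, 8.55 and 8.27) and on none at day 1 control, so that it was at least 5.65-fold lower. *Sfrp2*, encoding a secreted Wnt-binding protein, fell to 6.96, 6.97 and 6.85 at day 1 control, against 9.35, 9.26 and 9.38 at day 0 (difference -2.40 ± 0.07, adjusted p = 7.3e-06). *Dlk1*, a transmembrane protein related to the Notch ligands, was 8.11, 7.97 and 7.86 at day 1 control and 9.38, 10.67 and 10.79 at day 0. Its day 0 arrays were uneven, with the first more than a log2 unit below the others, although all 3 lay above day 1 control (difference -2.30, adjusted p = 0.0019). *Cfap52* (-2.19), a gene of motile cilia, and the matrix proteins *Smoc1* (-2.01) and *Mgp* (-1.84) fell as well. So did *Mfge8* (-1.86), which bridges dying cells to phagocytes, *Brinp3* (-1.81), the cathepsin inhibitor *Ctla2a* (-1.74), the thrombin receptor *F2r* (-1.69) and *Qprt* (-1.67), an enzyme that degrades quinolinate. Another 4 genes of this group were not detected on any day 1 control array, namely *Cd93*, *Wnt7b*, *Prph* and *Clec10a*, which were at least 3.34-fold, 3.15-fold, 2.45-fold and 2.51-fold lower. *Clec10a*, a lectin of macrophages, was 5.67 on the first day 0 array and 7.64 and 7.58 on the others, and its call was lost when any array but that one was left out. Over all probes, 42 were detected on the 3 day 1 control arrays and on no day 0 array, and 141 on the 3 day 0 arrays and on no day 1 control array.

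**Figure D2:**
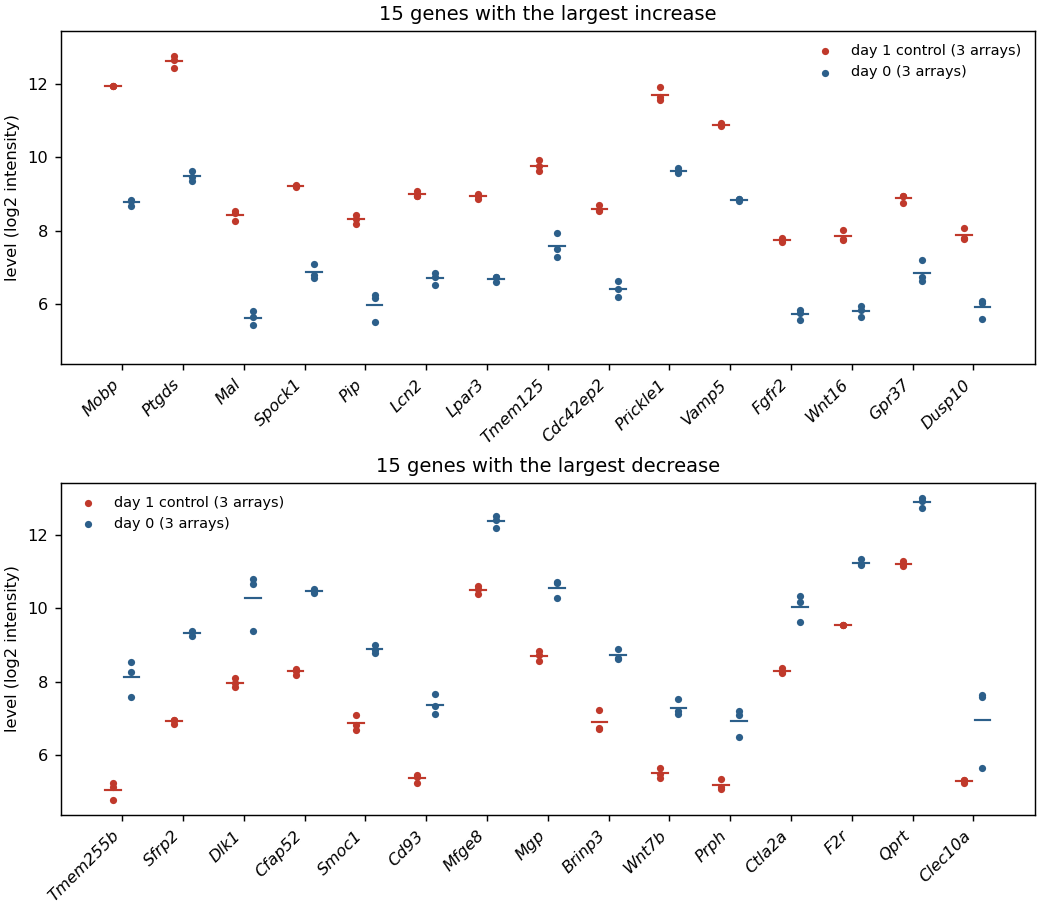
Points give the level (log2 intensity) on each array for the 15 named genes with the largest increase (upper panel) and the largest decrease (lower panel), with day 1 control in red to the left of day 0 in blue and lines at the means of 3 arrays. The groups do not overlap for any of these genes, and for *Dlk1* and *Clec10a* 1 of the day 0 arrays lies well below the other 2.

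In all, 40 gene lists were then described by how many of their detected members were called, beside the shares of all probes given above. The lists that stood farthest from these shares were the myelin membrane proteins and genes of maturing OLGs on the higher side, and the microglia markers, Notch genes and OLP markers on the lower side.

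**Figure D3:**
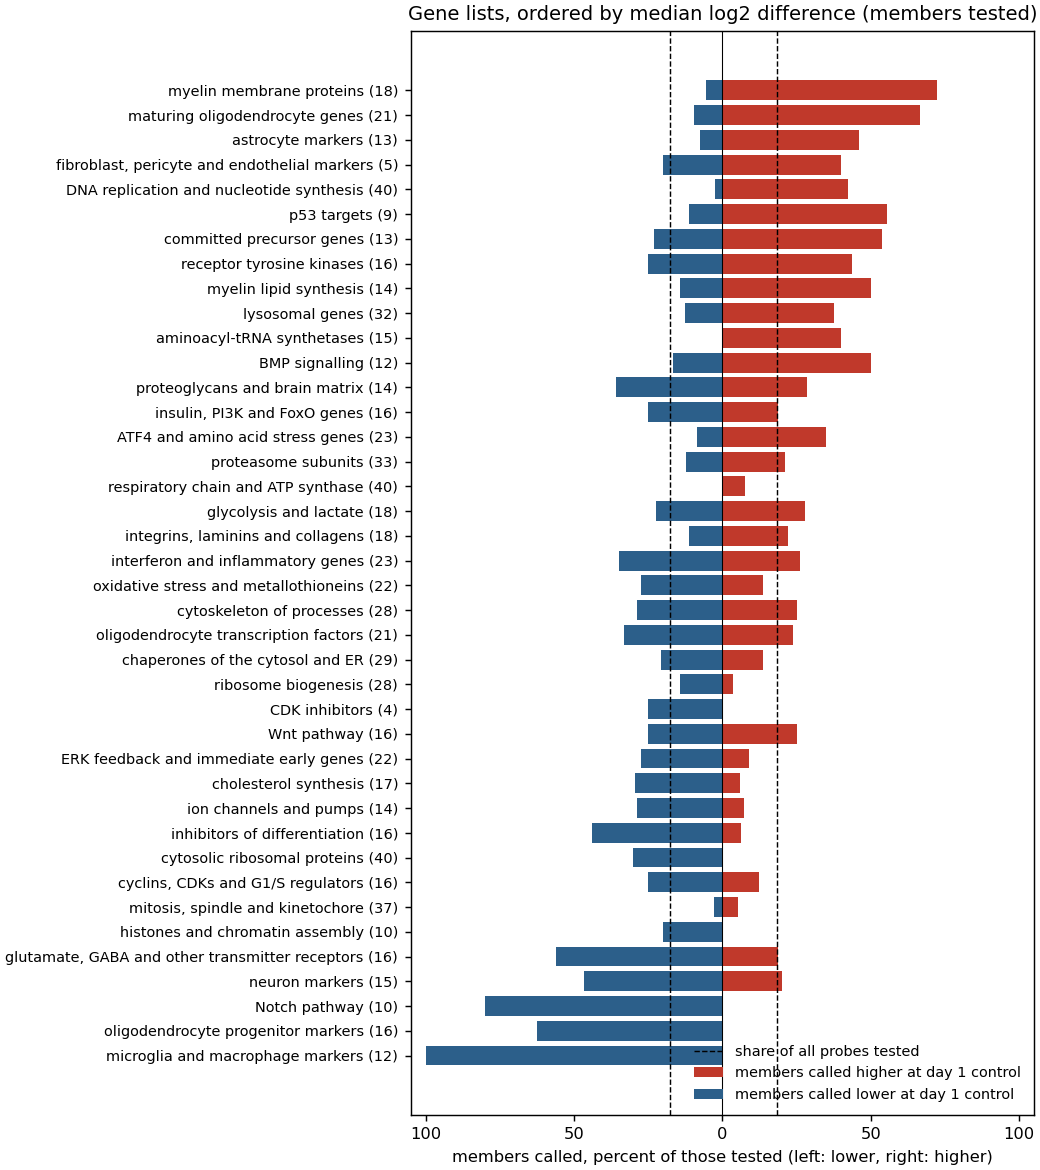
Bars show, for each of the 40 gene lists, the percentage of members tested that were called higher (red, to the right) and lower (blue, to the left) at day 1 control relative to day 0, with the number tested in brackets and lists ordered by their median log2 difference. Dashed lines mark the shares of all probes tested, 18.3% higher and 17.6% lower; 72.2% of the myelin membrane proteins were higher, and all 12 microglia markers were lower.

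Genes of the myelin membrane were raised within the first day. Of 18 detected members 13 were higher, 1 was lower and 4 did not pass, with a median difference of 0.69 against 0.008 over all probes. *Mag*, the myelin-associated glycoprotein of the innermost myelin layer, measured 8.99, 8.60 and 8.94 at day 1 control and 7.15, 7.54 and 7.51 at day 0 (2.72-fold, adjusted p = 0.0003). *Mbp*, which compacts the cytoplasmic faces of myelin, was 12.41, 12.58 and 12.39 at day 1 control, against 11.49, 11.60 and 11.17 at day 0 (2.06-fold, adjusted p = 0.00069). *Mog*, a surface glycoprotein of the outermost layer, was 10.01, 10.20 and 10.29 against 9.15, 9.43 and 9.53 (1.74-fold, adjusted p = 0.0021), also without overlap between day 1 control and day 0. The sialylated glycoprotein gene *Opalin* was detected on the 3 day 1 control arrays (6.87, 6.86 and 6.58) and on no day 0 array, and was at least 2.36-fold higher. *Tspan2* (1.30), the tight junction gene *Cldn11* (1.10), *Jam3* (0.69) and *Nfasc* (0.69) also rose. *Cnp*, near the top of the intensity range in both groups, was 15.27, 15.27 and 15.22 at day 1 control and 14.82, 14.89 and 14.95 at day 0, a difference of 0.37. *Pmp22*, a protein of peripheral myelin, was the member that fell (-0.37, adjusted p = 0.012), and *Plekhb1* (0.17), *Gjb1* (0.12), *Pllp* (0.06) and *Omg* (-0.05) did not pass.

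Promoters of *Mobp* and *Mag* are shown because Sox10, an HMG-box factor of the Sox family, is a known regulator of myelin genes. The windows run from 250 bases before to 50 bases after the start site (RefSeq, build GRCr8, 5′ to 3′ on the gene's strand), at chr8:128746982-128747281 on the plus strand for *Mobp* and at chr1:95290995-95291294 on the minus strand for *Mag*. Capitals mark the Sox core ACAAAG on either strand, which reads CTTTGT on the strand shown.
Mobp: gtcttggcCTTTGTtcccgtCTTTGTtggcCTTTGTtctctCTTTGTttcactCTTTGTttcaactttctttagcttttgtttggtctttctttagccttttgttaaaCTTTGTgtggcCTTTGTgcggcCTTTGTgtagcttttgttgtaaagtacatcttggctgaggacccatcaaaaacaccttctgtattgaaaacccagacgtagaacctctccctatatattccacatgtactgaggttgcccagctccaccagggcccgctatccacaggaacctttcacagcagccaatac
Mag: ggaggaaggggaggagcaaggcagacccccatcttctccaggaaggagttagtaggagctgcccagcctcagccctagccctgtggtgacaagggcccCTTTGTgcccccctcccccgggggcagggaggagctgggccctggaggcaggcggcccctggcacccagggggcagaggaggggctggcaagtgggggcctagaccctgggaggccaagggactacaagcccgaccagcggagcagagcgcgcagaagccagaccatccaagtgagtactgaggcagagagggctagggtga
The *Mobp* window held 8 matches, all in the first part of the window, and the *Mag* window held 1. Of the raised myelin membrane genes with a promoter in the table, 4 of 10 held the core, and 3 of 12 of the raised genes of maturing OLGs did, against 18.3% of 27457 promoters. Members of these lists that did not rise were not counted, so a link of the core to the rise was not tested. A match describes the letters of the window and is not a measured binding site.

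Genes of maturing OLGs outside the sheath proper moved the same way, with 14 of 21 higher, 2 lower and a median of 0.61. *Gpr37* was 8.94, 8.74 and 8.95 at day 1 control and 6.73, 6.62 and 7.21 at day 0 (4.05-fold, adjusted p = 0.00012). The phosphatase inhibitor *Ppp1r14a* (1.39), the matrix protease *Adamts4* (1.35), the choline phosphodiesterase *Enpp6* (1.33), the nodal link protein *Hapln2* (1.31), the creatine-synthesis gene *Gamt* (1.15) and the aspartoacylase *Aspa* (1.10) followed. Other members of the list did not pass or fell. *Bcas1*, also near the top of the intensity range in both groups, did not pass (15.50, 15.56 and 15.52 at day 1 control and 15.61, 15.43 and 15.59 at day 0; difference -0.02, 95% interval -0.20 to 0.16), and the iron carrier *Tf* (-0.71) and the ephrin *Efnb3* (-0.76) fell.

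Lipid genes divided. Of 14 detected genes of myelin lipid synthesis 7 rose and 2 fell, led by the lipogenic transcription factor *Srebf1* (9.60, 9.59 and 9.45 at day 1 control, against 8.58, 8.63 and 8.70 at day 0; 1.87-fold, adjusted p = 0.00017) and the fatty acid desaturase *Fads2* (0.81). The ceramide genes *Cers2* (0.58) and *Degs1* (0.48) rose with them. *Ugt8*, which makes galactocerebroside, was 13.45, 13.46 and 13.39 at day 1 control and 13.20, 13.15 and 13.29 at day 0, and its call (0.22, adjusted p = 0.046) was lost when any 1 of the 6 arrays was left out. *Acaca*, the first committed enzyme of fatty acid synthesis, fell (-0.44). Cholesterol synthesis did not rise as a group. Of 17 members 1 rose, *Tm7sf2* (0.64, with a second probe at 0.17 that did not pass), and 5 fell, namely *Mvd* (-0.56), the sterol carrier *Stard4* (-0.43), *Fdps* (-0.37), *Nsdhl* (-0.32) and *Msmo1* (-0.29).

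The OLP markers called on all 6 arrays were lower. Of 16 detected, 10 were lower, none was higher and 6 were not called. Their median was -0.56. Without day 0 replicate 1, 11 were lower and 1 was higher, with a median of -0.51. In that fit 1579 of all probes were lower and 1638 higher. *Pdgfra*, the receptor for PDGF-AA, was 11.41, 11.35 and 11.57 at day 1 control and 12.83, 12.54 and 12.69 at day 0 (2.37-fold lower, adjusted p = 0.00013). *Cspg4*, the NG2 proteoglycan of OLPs, was 10.65, 10.78 and 10.97 at day 1 control, against 12.10, 11.73 and 11.85 at day 0 (2.13-fold lower, adjusted p = 0.00058). *Rlbp1*, a retinoid-binding protein, showed the largest fall of the list (-1.57), and *Tmem100* (-1.31, detected on 2 of 3 day 1 control arrays), the neuregulin-like proteoglycan *Cspg5* (-1.07), *Cacng4* (-0.98) and *C1ql1* (-0.93) fell too. *Nes*, encoding the intermediate filament nestin, measured 7.63, 7.86 and 7.91 at day 1 control and 7.68, 8.20 and 8.34 at day 0, so that the groups overlapped (-0.27, adjusted p = 0.25). Summed over 17 markers on the array the linear level was 83839 to 90730 at day 1 control and 113952 to 119660 at day 0. In such mixed RNA, fewer cells of a type and less RNA of a gene per cell cannot be told apart.

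**Figure D4:**
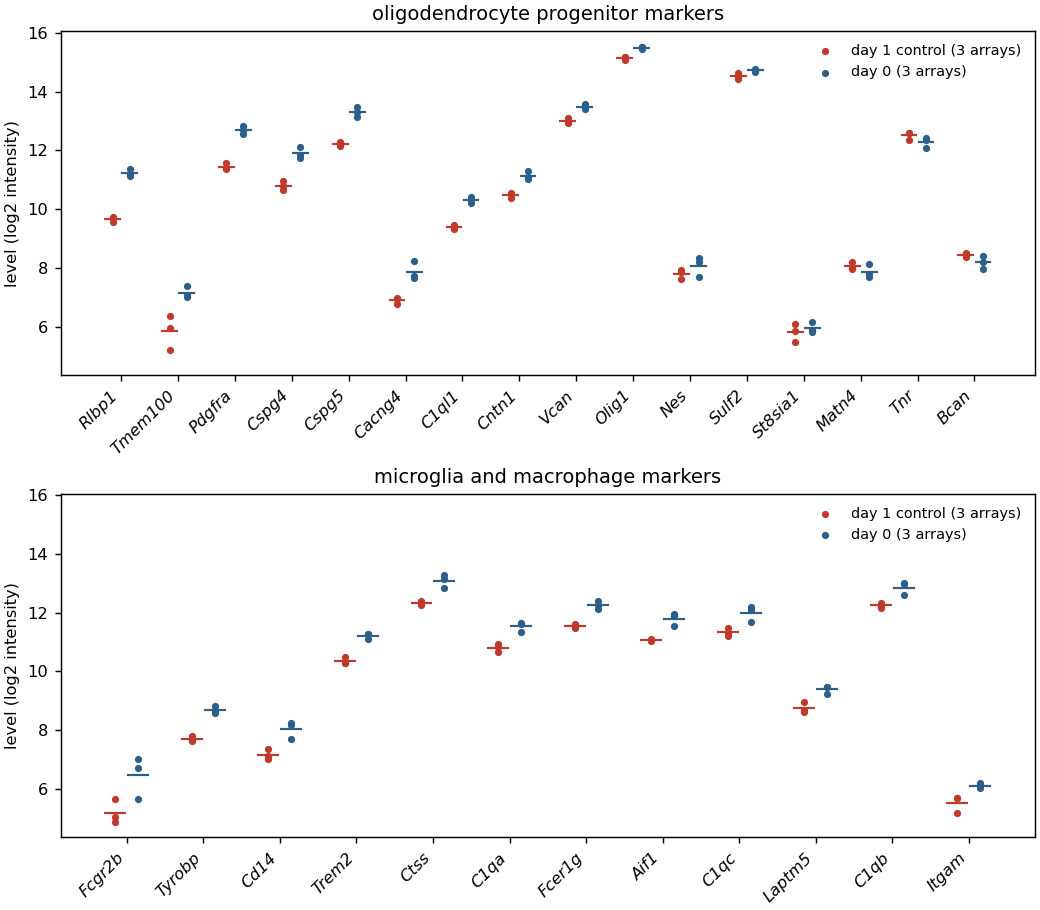
Points give the level (log2 intensity) on each array for the detected OLP markers (upper panel) and the detected microglia and macrophage markers (lower panel), ordered by their difference, with day 1 control in red to the left of day 0 in blue and lines at the means of 3 arrays. *Rlbp1*, *Pdgfra* and *Cspg4* fell by more than a log2 unit, whereas *Nes*, *Tnr* and *Bcan* did not pass; all 12 microglia markers were lower.

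Genes of committed precursors, the stage between OLP and OLG, were mixed, with 7 of 13 higher and 3 lower. *Tcf7l2*, a Wnt effector expressed as OLPs commit, was 8.98, 8.60 and 8.78 at day 1 control and 8.24, 7.78 and 8.13 at day 0 (1.66-fold, adjusted p = 0.0063). *Tmem163* (1.03), *Rras2* (0.92), *Sox4* (0.74), *Bmp4* (0.36) and the kinase *Fyn* (0.26) rose, and *Epcam* was at least 1.64-fold higher. *Sox11*, a partner of *Sox4* in neural precursors, moved the other way (-1.08), as did the sialidase *Neu4* (-0.55) and *Dll3* (-0.43).

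Transcription factors of the lineage moved in both directions. Of 21 detected, 5 rose, 7 fell and 9 did not pass. *Sox10* was 13.40, 13.39 and 13.38 at day 1 control and 13.36, 13.29 and 13.37 at day 0 (difference 0.05, 95% interval -0.10 to 0.21). *Olig2* (-0.59), *Olig1* (-0.34), *Sox8* (-0.45), *Rxrg* (-0.54), *Klf9* (-0.52), *Nfib* (-0.38) and *Prrx1* (-1.27, detected on 2 of 3 day 1 control arrays) fell. *Hdac11*, a histone deacetylase tied to myelin gene expression, rose to 12.74, 12.77 and 12.74, against 11.71, 12.02 and 11.82 at day 0 (1.87-fold, adjusted p = 0.00038), and *St18* (0.89, detected on 1 of 3 day 0 arrays), *Tcf7l2* (0.73), *Yy1* (0.38) and *Carhsp1* (0.33) rose as well. *Nkx6-2* was higher on each day 1 control array (11.58, 11.61 and 11.62, against 10.81, 11.49 and 11.40 at day 0), but the difference of 0.37 did not pass (adjusted p = 0.12).

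Receptors for the withdrawn mitogens changed in both directions. *Fgfr2* was 7.70, 7.74 and 7.81 at day 1 control and 5.56, 5.76 and 5.84 at day 0, with 2 of those 3 arrays detecting it (4.09-fold, adjusted p = 2e-05), and *Fgfr3* rose by 0.63, whereas *Pdgfra* fell. Over 16 detected receptor tyrosine kinases 7 rose, including *Tyro3* (1.39), a receptor for Gas6, and *Ephb1* (0.60), and 4 fell, including *Axl* (-0.47, with a second probe at -0.30 that did not pass). The count of 4 became 2 without day 1 control replicate 3, day 0 replicate 1 or day 0 replicate 2. Among 22 ERK feedback and immediate early genes 6 fell and 2 rose. *Etv1*, an ETS factor induced by FGF signals, fell by 1.27, and the ERK phosphatase *Dusp6* was 11.28, 11.21 and 11.18 at day 1 control, against 12.14, 12.11 and 12.21 at day 0 (1.90-fold lower, adjusted p = 0.00011). The feedback inhibitors *Spry1* (-0.77) and *Spry4* (at least 1.35-fold lower) and the immediate early genes *Ier3* (-0.57) and *Ier2* (-0.49) fell with them. *Fos* (0.47) and *Jun* (0.41) rose instead, and *Myc* and *Egr1* did not pass (-0.08 and -0.22). The call of *Jun* was lost without day 1 control replicate 2 or replicate 3 (adjusted p = 0.056 and 0.061). In the insulin and PI3K list the regulatory subunit *Pik3r3* rose most (9.50, 9.63 and 9.25 at day 1 control and 8.06, 7.93 and 7.55 at day 0; 1.62), and *Igfbp3* fell most (-0.88).

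Notch genes fell. Of 10 detected 8 were lower, none was higher and the median was -0.49. The receptor *Notch1* was 1.87-fold lower (adjusted p = 0.00068), with 8.84 to 9.08 on the day 1 control arrays and 9.70 or more on those of day 0. The Notch target genes *Hey1* (-0.50) and *Hes1* (at least 1.06-fold lower, being undetected at day 1 control) fell, as did the glial Notch ligand *Cntn1* (-0.64), while the ligand *Jag1* did not pass (0.25). *Cntn1* measured 10.39, 10.53 and 10.56 at day 1 control, against 11.30, 11.01 and 11.10 at day 0. Wnt ligands changed in both directions. The ligands *Wnt16* (2.02) and *Wnt4* (at least 1.75-fold) rose, as did the Wnt secretion factor *Wls* (0.71), and the ligands *Wnt7b* (at least 3.15-fold lower) and *Wnt5a* (-1.31, detected on 2 of 3 day 1 control arrays) and the antagonist *Sfrp2* fell. In the BMP list, antagonists and ligands rose together. *Smad7*, which blocks receptor signalling, was 7.73, 7.49 and 7.57 at day 1 control and 6.32, 6.47 and 6.46 at day 0 (2.27-fold, adjusted p = 0.00011), and the secreted antagonist *Nog* (0.81), the pseudoreceptor *Bambi* (0.76) and the ligands *Bmp2* (0.44) and *Bmp4* (0.36) rose, while the BMP target *Id3* (-0.45) and the receptor *Bmpr2* (-0.53) fell. *Id2*, another inhibitor of differentiation, did not pass (0.18, adjusted p = 0.12).

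The cell cycle gave a divided picture. Of 40 detected genes of DNA replication and nucleotide synthesis 17 were higher and 1 was lower at day 1 control, with a median of 0.28. Day 0 array 1 was the lowest of its group for these genes (-0.16 relative to the day 0 mean, against 0.10 and 0.07), and without it 17 were higher and 3 lower, with a median of 0.19. Several MCM genes, most of which encode subunits of the helicase that unwinds DNA at origins, were among those that rose. *Mcm6* was 9.88, 9.99 and 10.10 at day 1 control and 9.03, 9.47 and 9.49 at day 0 (1.58-fold, adjusted p = 0.0079), and *Mcm3* (0.91, detected on 2 of 3 day 0 arrays), *Mcm4* (0.61), *Mcm5* (0.61) and *Mcm2* (0.46) rose too. *Mcm8*, a relative that is not part of that helicase, rose by 0.68 and was detected on 1 of 3 day 0 arrays. The polymerase clamp *Pcna* rose by 0.31 and the flap endonuclease *Fen1* by 0.71. The G1/S factor *E2f1*, of the list of cyclins and G1/S regulators, differed by 0.54 and was detected on 1 of 3 day 0 arrays. *Tyms*, encoding thymidylate synthase, was the member that fell (-0.75, adjusted p = 0.039, detected on 2 of 3 day 1 control arrays), a call that was lost without day 1 control replicate 2, day 0 replicate 2 or day 0 replicate 3. On the deposited intensities no member of the replication list was called higher and 7 were called lower. Over all 9959 probes 339 were called higher and 4819 lower there, and the list median stayed above that of all probes by 0.19.

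Promoters of *Mcm3* and *Mcm6* are shown because E2F factors are known to drive replication genes. They lie at chr9:30733697-30733996 and chr13:42404303-42404602, both on the minus strand (RefSeq, GRCr8), and capitals mark TTTGGCGC or TTTCGCGC on either strand. In *Mcm6* a match on each strand overlaps the other.
Mcm3: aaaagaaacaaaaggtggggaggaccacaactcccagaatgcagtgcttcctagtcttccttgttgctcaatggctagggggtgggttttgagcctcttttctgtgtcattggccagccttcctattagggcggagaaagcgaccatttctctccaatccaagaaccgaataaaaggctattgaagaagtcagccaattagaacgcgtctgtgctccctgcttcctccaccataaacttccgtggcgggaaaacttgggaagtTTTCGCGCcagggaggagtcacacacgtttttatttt
Mcm6: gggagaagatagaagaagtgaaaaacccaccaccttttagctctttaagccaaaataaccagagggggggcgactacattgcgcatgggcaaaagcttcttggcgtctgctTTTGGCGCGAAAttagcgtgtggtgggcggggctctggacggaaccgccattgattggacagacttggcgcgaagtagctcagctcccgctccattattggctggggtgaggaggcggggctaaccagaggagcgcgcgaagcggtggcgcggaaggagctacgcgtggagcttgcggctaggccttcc
Either motif was found in 7 of 15 promoters of the raised replication genes and in 0.841% of all promoters of the same length. Replication genes that did not rise were not counted, so a link of the motif to the rise was not tested.

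Genes of mitosis depended on a single day 0 array. Of 37 detected, 2 were called higher (*Incenp* 0.42 and *Ncapd2* 0.36), 1 lower and 34 did not pass, although the median was -0.21. The lower one, *Cdca3* (-0.94), was detected on 1 of 3 day 1 control arrays, and its groups overlapped (5.75, 5.25 and 5.18 at day 1 control and 5.65, 6.56 and 6.80 at day 0). On day 0 array 1 the median of these genes was -0.57 relative to the day 0 mean, against 0.27 and 0.33 on day 0 arrays 2 and 3, while the day 1 control arrays lay between them at -0.26, -0.32 and -0.14. Without day 0 replicate 1, 25 of the genes were lower at day 1 control and 1 was higher, with a median of -0.54. On the deposited intensities 28 were lower, beside 4819 of all 9959 probes tested. Without background correction 6 were lower, beside 1946 of all probes. *Prc1*, a spindle midzone protein, shows the pattern with 9.84, 9.70 and 9.69 at day 1 control and 9.78, 10.77 and 10.71 at day 0 (-0.68, adjusted p = 0.064; without day 0 replicate 1 -1.0, adjusted p = 0.00053). *Ccnb2*, a mitotic cyclin counted in the list of cyclins and G1/S regulators, was 9.95, 9.99 and 9.96 at day 1 control, against 10.24, 11.36 and 11.30 at day 0. Its fall of 1.00 (adjusted p = 0.025) became 1.36 (adjusted p = 0.00021) without that array and was lost when any other of the 6 arrays was left out. *Cdk1* measured 9.96, 10.10 and 10.08 at day 1 control and 9.86, 10.79 and 10.77 at day 0 (-0.43, adjusted p = 0.19). Among CDK inhibitors, *Cdkn1b*, a brake on G1 in OLPs, did not pass (0.06, 95% interval -0.22 to 0.33), and *Cdkn3* fell (-1.18), losing its call without day 0 replicate 2 (adjusted p = 0.052). *Ccnd1* (-0.34), *Ccne2* (-0.43) and *Cdc25a* (-0.36), which act in G1 and at its end, fell. Of 16 cyclins, CDKs and their regulators 4 fell, 2 rose and 10 did not pass, beside 17.6% lower and 18.3% higher over all probes. Without day 0 replicate 1, 7 fell and 2 rose, beside 1579 lower among all 9959 probes.

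Promoters of *Ccnb2* and *Prc1* carry the cell cycle homology element TTTGAA, through which MuvB complexes are known to control mitotic genes. They lie at chr8:79981609-79981908 on the minus strand and chr1:143659231-143659530 on the plus strand (RefSeq, GRCr8), with matches on either strand in capitals.
Ccnb2: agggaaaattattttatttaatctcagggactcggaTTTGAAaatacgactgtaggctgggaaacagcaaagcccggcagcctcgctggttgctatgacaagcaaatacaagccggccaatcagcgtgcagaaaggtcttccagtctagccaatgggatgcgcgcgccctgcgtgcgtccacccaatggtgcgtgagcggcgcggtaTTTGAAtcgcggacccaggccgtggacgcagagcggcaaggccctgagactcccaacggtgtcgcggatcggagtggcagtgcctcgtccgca
Prc1: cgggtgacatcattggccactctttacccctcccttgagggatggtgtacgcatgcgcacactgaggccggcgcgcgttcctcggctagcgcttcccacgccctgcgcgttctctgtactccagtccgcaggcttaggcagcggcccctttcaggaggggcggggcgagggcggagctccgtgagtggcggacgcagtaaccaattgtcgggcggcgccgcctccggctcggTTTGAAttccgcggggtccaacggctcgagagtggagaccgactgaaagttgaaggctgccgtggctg
The element was found in 23 of 30 promoters of the mitosis genes tested, against 18.1% of all promoters of that length. The windows of *Ccnb2*, which is not in that list, and *Prc1* held 2 and 1 matches.

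**Figure D5:**
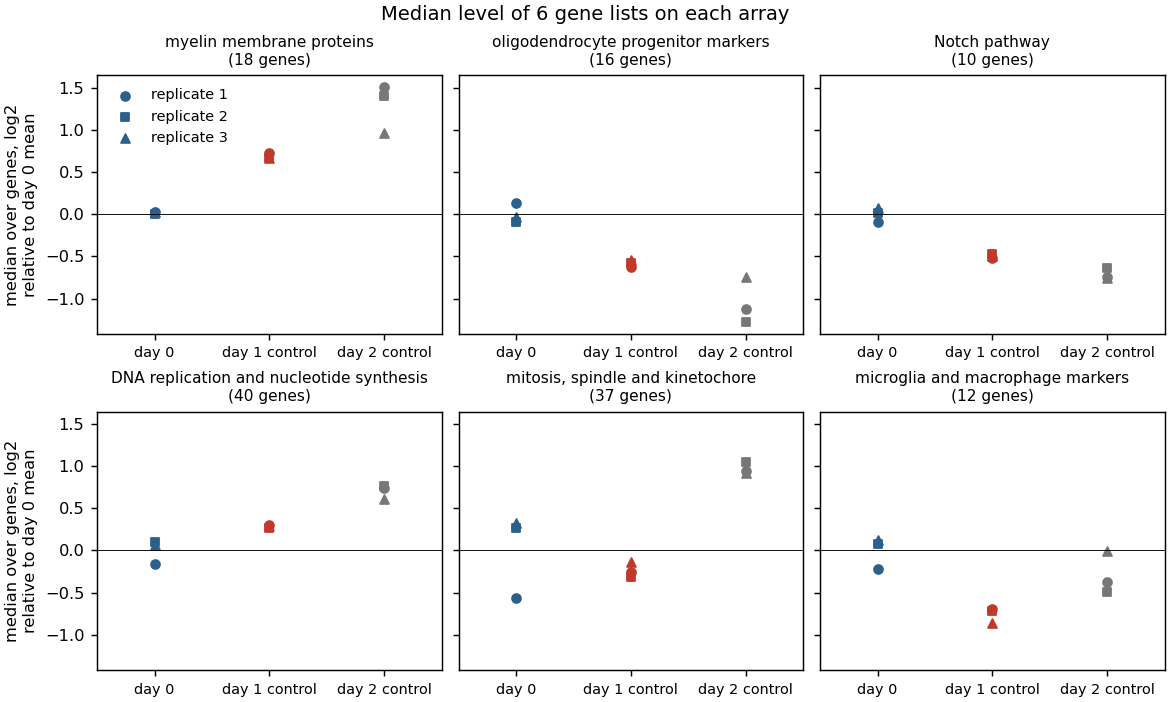
Each panel gives, for 1 gene list, the median over its genes of the log2 level relative to the day 0 mean on every array of day 0, day 1 control and day 2 control, with symbols for the replicate numbers. Myelin membrane proteins rise and OLP markers fall with time; in the mitosis panel day 0 replicate 1 lies at -0.57, below the other day 0 arrays, and the day 2 control arrays lie at 0.92 to 1.05. The array labelled day 2 control 3 (triangle) is plotted under its label, which is in doubt.

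Stress and growth genes showed selective changes. Of 9 detected genes in the list of p53 targets 5 were higher and 1 was lower, and whether they answered to p53 here was not tested. *Gadd45a* rose by 1.29 and *Phlda3*, an inhibitor of Akt, by 1.08. *Gadd45b*, a relative of *Gadd45a* that the list also counts, was 8.77, 8.98 and 8.95 at day 1 control and 7.41, 7.43 and 7.42 at day 0 (1.48). Of 23 genes of the ATF4 response to amino acid shortage 8 rose, among them *Ddit3* (0.74), *Atf3* (0.65), *Atf4* (0.53) and *Asns* (0.53), while the amino acid transporters *Slc7a3* (-1.30) and *Slc1a5* (-1.22, detected on 2 of 3 day 1 control arrays) fell and *Slc7a1* rose (0.83). Without day 0 replicate 3 the count of raised members was 5. Of 15 aminoacyl-tRNA synthetases 6 rose and none fell, led by *Aars1* (12.64, 12.65 and 12.67 at day 1 control and 12.05, 11.96 and 11.91 at day 0; 0.68). *Tars1* rose on 1 probe (0.55) and not on a second (-0.21, adjusted p = 0.31).

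Ribosomal protein genes tended down. Of 40 detected 12 were lower, none was higher and the median was -0.19. *Rps12* (-0.57), *Rpl7* (-0.57), *Rpl30* (-0.50) and *Rps2* (-0.50) fell most. The count was 6 when arrays were scaled to the 75th percentile and 7 without day 0 replicate 2. On day 1 control array 1 several short mRNAs, chosen after their values were seen, were lower than on the other arrays of the group, as with *Rps27* (13.32, 14.07 and 13.99) and *Ndufa1* (11.79, 12.54 and 12.46). Few respiratory chain genes were called, with 3 of 40 higher (*Sdhd* 0.36, *Cycs* 0.34 and *Sdhc* 0.30) and none lower. In glycolysis *Eno2* (0.87) and the lactate carrier *Slc16a1* (0.46) rose, and *Ldhb* (-0.67) and the lactate carrier *Slc16a3* (-0.87) fell. Lysosomal genes rose in 12 of 32 cases, with the protease *Ctsl* at 14.82, 14.72 and 14.70 at day 1 control and 13.90, 14.00 and 14.12 at day 0 (0.74, adjusted p = 0.00054) and *Lgmn* (0.67), *Lamp1* (0.52) and *Npc1* (0.50) beside it. The 4 that fell were *Ctss* (-0.76), *Ctsc* (-0.74), *Ctsd* (-0.52) and *Ppt1* (-0.38). In the proteasome, the immune subunits *Psmb10* (-0.80) and *Psmb8* (-0.65) and the activator *Psme1* (-0.68) fell, as did *Psmc6* (-0.54). Of 33 subunits 7 rose (21.2%, near the 18.3% of all probes), or 3 without day 1 control replicate 3 and 4 without day 0 replicate 3. Of 29 chaperones of the cytosol and endoplasmic reticulum 6 fell (20.7%) and 4 rose (13.8%), with a median of -0.06. These shares lie near those of all probes, 17.6% lower and 18.3% higher. *Hspb1* (-0.93), a small heat shock protein, fell most, and *Hspa2* (1.49), a relative of HSP70, rose most. The count of 4 became 2 without day 1 control replicate 2, day 1 control replicate 3 or day 0 replicate 2.

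Cytoskeletal genes of cell processes moved both ways. Of 28 detected 7 rose and 8 fell, with a median of -0.04 relative to all probes that became 0.03 when arrays were scaled to the 75th percentile. The microtubule-bundling protein *Tppp* was 7.01, 7.34 and 6.75 at day 1 control and 6.17, 6.05 and 5.96 at day 0 (0.97), and *Stmn4* (0.89), *Tuba4a* (0.70), *Map1b* (0.60) and *Map1a* (0.53) rose. *Dpysl3* (-1.25), *Stmn3* (-1.09), *Gap43* (-1.04), *Crmp1* (-1.0) and *Stmn2* (-0.80) had the largest falls. Of the transmitter receptors by which OLPs sense neuronal activity 9 of 16 were lower. The AMPA receptor subunit *Gria3* was 8.87, 8.83 and 8.81 at day 1 control, against 10.13, 9.89 and 10.03 at day 0 (-1.18, adjusted p = 8.4e-05), and *Gria2* (-0.61), the NMDA receptor subunit *Grin1* (-0.87), the GABA receptor subunits *Gabrb1* (-1.04) and *Gabra5* (-1.02), the adenosine receptor *Adora1* (-1.31) and the muscarinic receptor *Chrm3* (-1.37) fell. The kainate receptor subunit *Grik2* (0.43), the lysophosphatidic acid receptor *Lpar1* (0.40) and *Gabrg1* (0.39) rose. Of the channels, the potassium channel genes *Kcnd2* (-0.85) and *Kcnd3* (-0.63) and their partner *Kcnip3* (-1.16) fell and the sodium channel subunit *Scn3b* rose (1.38).

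Markers of other cell types moved with these changes, and their part in the results was not tested. All 12 detected microglia and macrophage markers were lower at day 1 control, with a median of -0.74. *Aif1* was 11.06, 11.12 and 11.02 at day 1 control and 11.53, 11.90 and 11.94 at day 0 (1.66-fold lower, adjusted p = 0.0026), and *Trem2* was 10.27, 10.50 and 10.29 at day 1 control, against 11.10, 11.28 and 11.27 at day 0 (1.82-fold lower, adjusted p = 0.00045). *Tyrobp* (-0.99), *Cd14* (-0.88), *Fcer1g* (-0.73) and the complement genes *C1qa*, *C1qb* and *C1qc* (-0.74, -0.61 and -0.66) fell too. The summed linear level of the 15 markers on the array was 20675 to 22343 at day 1 control and 30481 to 39133 at day 0, and *Cd74* was not detected on any array. Several decreased genes named above, among them *Cd93*, *Clec10a*, *Mfge8*, *Ctss* and the immune proteasome subunits, are also known from myeloid cells, and the cytokines *Il18* (-1.33) and *Il1b* (-0.79, detected on 1 of 3 day 1 control arrays) fell, whereas the chemokines *Ccl20* (0.80), *Ccl2* (0.62) and *Cxcl1* (0.59) rose. Of 13 astrocyte markers 6 rose, 1 fell and 6 did not pass, with differences from -0.29 to 1.57. Those that rose included the connexins *Gjb2* (1.57), *Gjb6* (1.36, detected on 2 of 3 day 0 arrays) and *Gja1* (0.48). *Gjb2* was 7.77, 7.72 and 7.76 at day 1 control and 6.02, 6.33 and 6.19 at day 0. *Gfap*, the defining filament of astrocytes, was 14.07, 14.18 and 14.16 at day 1 control and 14.02, 13.99 and 14.03 at day 0 (0.13, 95% interval -0.03 to 0.29), and the summed astrocyte level was 58786 to 61362 at day 1 control and 59647 to 65751 at day 0. Of 15 neuron markers 7 fell, 3 rose and 5 did not pass. Their differences ran from -0.94 to 0.87, with a median of -0.42. *Gad1* (-0.94) and *Snap25* (-0.89) were lower, *Rbfox3* did not pass (-0.09), *Syn1*, *Nefh* and *Slc17a7* were not detected, and the summed level was 12934 to 13350 at day 1 control and 12982 to 13605 at day 0. Fibroblast and vessel markers were few, with 5 of 13 tested and *Col1a1*, *Cdh5*, *Flt1*, *Tek* and *Rgs5* not detected on any array. Of the 5 tested 2 rose and 1 fell, *Mgp* (-1.84), with a median of 0.35. The summed level of the 13 on the array, *Mgp* included, was 2339 to 2650 at day 1 control and 2805 to 3378 at day 0.

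Values at day 2 show which of the first-day changes went on, with the reservation that these comparisons share the day 1 control arrays. The array labelled day 2 control 3 correlated at 0.9972 with the array labelled day 2 PD169316 2 and at no more than 0.9865 with its own label. The array labelled day 2 PD169316 1 correlated at 0.9939 with day 2 control 2 and at 0.9794 to 0.9827 with its own label. The labels of these arrays may therefore have been exchanged, and directions at day 2 are given with and without day 2 control 3. At day 2 control relative to day 1 control, 13.1% of 9785 probes were called, 6.98% higher and 6.12% lower, and without that array 30.2% were called, 14.5% higher and 15.7% lower. *Mal* (1.66, or 1.61 without it), *Mog* (1.44, or 1.69) and *Gpr37* (1.64, or 1.86) rose further in both cases, and *Mobp* (1.19, adjusted p = 0.083, or 1.68, adjusted p = 0.00025) was called only without that array. *Tspan2* (0.10, or 0.17), *Wnt16* (-0.10, or -0.11), *Dusp6* (0.03, or -0.05), *Etv1* (0.02, or -0.11) and *Ptgds* (0.28, or -0.16) passed in neither case, and the last 3 changed sign without that array. Some genes turned back with all 3 arrays and without the doubted one. *Lcn2* fell by 1.69, *Gjb2* by 0.94, *Srebf1* by 0.77, *Tcf7l2* by 0.72, *Scn3b* by 0.66 and *Usp53* by 0.51 at day 2 after their first-day rise. *Il18* (1.42), *Ccl6* (1.30), *Dlk1* (1.06), *Vsig4* (0.98), *Lgals1* (0.93) and *Aif1* (0.82) rose at day 2 after their first-day fall. The mitotic cyclin *Ccnb2* (1.57) and the mitosis gene *Prc1* (1.46) were higher at day 2 control than at day 1 control. Relative to the day 0 mean, the median of the mitosis list was 0.94 and 1.05 on day 2 control arrays 1 and 2. It was 0.92 on the doubted array, and -0.26, -0.32 and -0.14 on the day 1 control arrays.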

How the data were processed

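Total RNA of each sample was amplified into cRNA, which was hybridised to 1 Illumina RatRef-12 array. The authors deposited, for each of 22523 probes, a bead intensity and a detection p-value; the intensity was neither logged nor scaled between arrays, and equals the value table of the series in all 405414 values. The slide on which an array lay is not given in the sources used here. The deposited intensities of the 18 arrays were background-corrected from the detection p-values, quantile-normalized with an offset of 16 and converted to log2 with neqc in limma 3.58.1 (R 4.3.3). A probe counted as detected where its detection p was under 0.01, and those detected on each of the 3 arrays of day 1 control or of day 0 were fitted on these 6 arrays with lmFit and eBayes (4 residual and 3.58 prior degrees of freedom), and p-values were adjusted by Benjamini-Hochberg over all probes tested; limma gave every adjusted p in the text. The fit was tested on data simulated with known changes and with noise independent between probes. Such data hold no shift shared by many genes of an array, so that test cannot speak to shifts of that kind. A gene was read from its probe with the highest mean. Where a gene was detected in 1 group only, its fold is a lower bound, set against the lowest level detected on each array of the other group or the probe's own level, whichever was higher. Tables and figures were made in Python 3.11.15 with pandas 2.3.3 and matplotlib 3.10.9.

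Genes named are those the study used for differentiation, other than *Nkx2.2*. Added to them were the 15 largest differences each way among called genes with a symbol whose groups did not overlap. Up to 4 of the most changed called members of each list were named as well. The rest were the 5 brightest genes detected in 1 group only each way, the 8 each way that turned back at day 2, and defining markers of other cell types. Members and lists were chosen with earlier results of these data known, and further list members were named after their values were seen. Alternatives changed the background correction, scaling, offset, detection filter, arrays in the fit, replicate block, array weights, choice of probe and fold, and left out each array in turn. The array's precision is limited by having 3 arrays a group. Some marker genes were not analysed here.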

Additional observations from a re-analysis of the deposited data

Results flagged for a closer look

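The first-day change differed between cultures with and without PD169316 for 2460 of 9733 probes (25.3%), by the limma test of day 1 PD169316 against day 1 control, both groups having started from day 0. This comparison shares the day 1 control arrays with the main one. Differences below are day 1 PD169316 minus day 1 control on the log2 scale, 3 arrays each. Of 18 myelin membrane genes 13 were lower with the inhibitor, none was higher and 5 were not called, among them *Opalin* at 0.26 (adjusted p = 0.16), beside 12.4% lower over all probes. Those named by their first-day change or by the study were *Mobp* at -0.82, *Mal* at -0.59, *Mbp* at -0.58, *Mag* at -0.52 and *Mog* at -0.47. Outside that list, *Ugt8* was lower at -0.5 and *Hdac11* at -0.47. Among the genes that had risen most, *Lcn2* differed by -2.24, *Pip* by -0.82, *Prickle1* by -0.62, *Ptgds* by -0.61, *Vamp5* by -0.6, *Cdc42ep2* by -0.47, *Tmem125* by -0.42, *Wnt16* by -0.39, *Spock1* by -0.35 and *Fgfr2* by -0.26, whereas *Gpr37* was higher by 0.29. Among those that had fallen most, *Dlk1* (1.62), *Prph* (0.82), *F2r* (0.76) and *Mfge8* (0.53) were higher with the inhibitor, and *Cfap52* (-1.99), *Smoc1* (-1.01), *Brinp3* (-0.97) and *Mgp* (-0.43) were lower still. *Nes*, which did not pass in the first-day comparison, was higher with the inhibitor by 1.15.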

How the results depend on the processing

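Over the alternatives run, the number of probes called at day 1 control relative to day 0 stayed within 1.5 times of 3576, other than with a fold of at least 2 required as well (376 called, 179 higher and 197 lower). On the deposited intensities 339 were higher and 4819 lower. Leaving out 1 array at a time gave 2691 to 3391 called, 1331 to 1691 higher and 1333 to 1700 lower. Of 256 named genes tested, of which 239 were called, 154 kept direction and side of the threshold under every alternative that gave a value and 195 under every one but the deposited intensities, and 41 lost their call when some array was left out. On the deposited intensities, where the median of all probes was -0.27, 12 named genes changed sign: *Cdkn1b* to -0.28, *Ugt8* to -0.08, *Wif1* to -0.07, *Akt1* to -0.06, *Ncapd2*, *Vwf*, *Hspa4*, *Dnajb9* and *Mdm2* to -0.04, *Incenp* to -0.03, and *Yars1* and *Gabrg1* to -0.01. With the replicate block 3445 probes were called, 1718 of them higher; deviations of same-numbered arrays correlated at 0.0101, 0.107 and 0.0716, and not every array correlated best with its own number, so that the numbers were not taken as pairs. Precision is limited by 3 arrays a group. Genes undetected on every array of a group carry only bounds, and differences of genes detected on 1 or 2 arrays of a group rest in part on levels not above background.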
